A study of Mus musculus with 8 samples.

Results

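Genes of heat shock proteins and DnaJ co-chaperones were examined in RNA from mouse colonic epithelial cells. Members were all gene symbols of the deposited table that begin with Hspa, Hspb, Hspd, Hspe or Hsph, or with Dnaja, Dnajb or Dnajc, followed by a number, and 1 pseudogene symbol was left out. The rule took 69 of 35963 symbols, summed from 187 transcripts. Genes of the HSP90 family are named in another form and appear below among the partner genes. The members made up 0.652% to 1.12% of the gene counts of a library.

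The cells came from the proximal colon of mice aged 4 weeks, with 4 libraries in each of 2 groups. Both groups were Ccna2 fl/fl, which means that Cre target sites flank part of Ccna2, the gene of cyclin A2. One group also carried vil-Cre, a Cre recombinase driven by the promoter of villin, a gene of intestinal epithelium. Its libraries are labelled Ccna2-KO and are called KO-labelled here, while the controls lacked Cre and are labelled wild type. Nothing in the labels ties each library to a mouse of its own, so each p-value measures only how these libraries spread, which may be technical.

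Gene counts per library ranged from 25960180 to 33028486. Epcam, an adhesion molecule of epithelium, lay between 1777 and 2030.3 CPM (counts scaled to 1000000 per library) in all 8 libraries. It is 1 of 8 epithelial genes, which summed to 17081.5 to 19100 CPM in controls and 16634.5 to 22377.7 CPM in KO-labelled libraries. Of these 8 genes, 0 passed at an adjusted p under 0.05 in edgeR, and 2 were lower at an unadjusted p under 0.05. Ccna2 itself did not separate the groups, at 11.9 to 54.3 CPM in controls and 16.2 to 26.6 CPM in KO-labelled libraries (log2 fold change -0.33 ± 0.41 SE, adjusted p = 0.673). Each library also has a number in its label. Low numbers go with controls 2, 3 and 4 and KO-labelled library 4, and high numbers with control 1 and KO-labelled libraries 1, 2 and 3. The labels do not say what the numbers mean. Values from a fit with a term for this low and high set are called set-adjusted.

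Molecular chaperones bind unfolded protein and help it fold, and many are made in larger amounts after heat or other stress. HSP70 proteins, from the Hspa genes, bind and release substrates in a cycle driven by ATP. J proteins, from the Dnaj genes, bring substrates and trigger ATP hydrolysis through their J domain, and HSP110 proteins (Hsph1, Hspa4, Hspa4l) exchange the nucleotide. Each compartment has its own set, with Hspa8 and the inducible Hspa1a and Hspa1b in the cytosol, Hspa5 (BiP) in the endoplasmic reticulum (ER), and Hspa9 with the chaperonin Hspd1 and its lid Hspe1 in mitochondria. Heat shock factor 1 (Hsf1) drives the cytosolic response, and the unfolded protein response drives the ER genes.

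Few chaperone genes passed the test between the labelled groups. Of the 69 members, 59 passed the filter on low counts and were tested. Dnajb4, Dnajc21 and Dnajc28 fell and 0 members rose at an adjusted p under 0.05 in edgeR's quasi-likelihood test. These 3 were 5.08% of the tested members, while 12.1% of all 15893 genes tested passed, 6.4% higher and 5.71% lower. At an unadjusted p under 0.05, 7 members were higher and 8 lower in edgeR. DESeq2 called 4 higher and 4 lower, or 13.6% of the members, while it called 18.6% of all genes (9.56% higher, 9.01% lower). The groups did not overlap in 12 members, 7 higher and 5 lower, a share to be read beside 19% of all genes. The median log2 fold change was -0.01 over the tested members and -0.01 over all genes.

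By compartment, edgeR called 0 or 1 member in each. Of 31 cytosolic members, 25 were tested, and in edgeR 1 fell and 0 rose (median -0.19 on the log2 scale). DESeq2 called Dnajb3 and Hspa14 higher and Dnaja4 and Dnajb4 lower among them. All 12 ER members were tested and 0 passed in edgeR (median 0.02), with 1 higher at an unadjusted p under 0.05 and 0 called by DESeq2. All 10 mitochondrial members were tested, and in edgeR 1 fell and 0 rose (median 0.03), while DESeq2 called Hspa9 higher and Dnajc28 lower. Among 4 nuclear members Dnajc21 fell with both tools. Of 3 tested members of vesicle and endosome traffic and 5 tested members without an assigned compartment, 0 passed in edgeR, 3 had an unadjusted p under 0.05, and DESeq2 called 1, Dnajc27. With the set term, 1 member was higher and 4 lower, or 8.47%, while 18.2% of all genes passed (9.29% higher, 8.9% lower). The set term took the median of the cytosolic members from -0.19 to -0.04 and that of the mitochondrial members from 0.03 to -0.09.

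**Figure D1:**
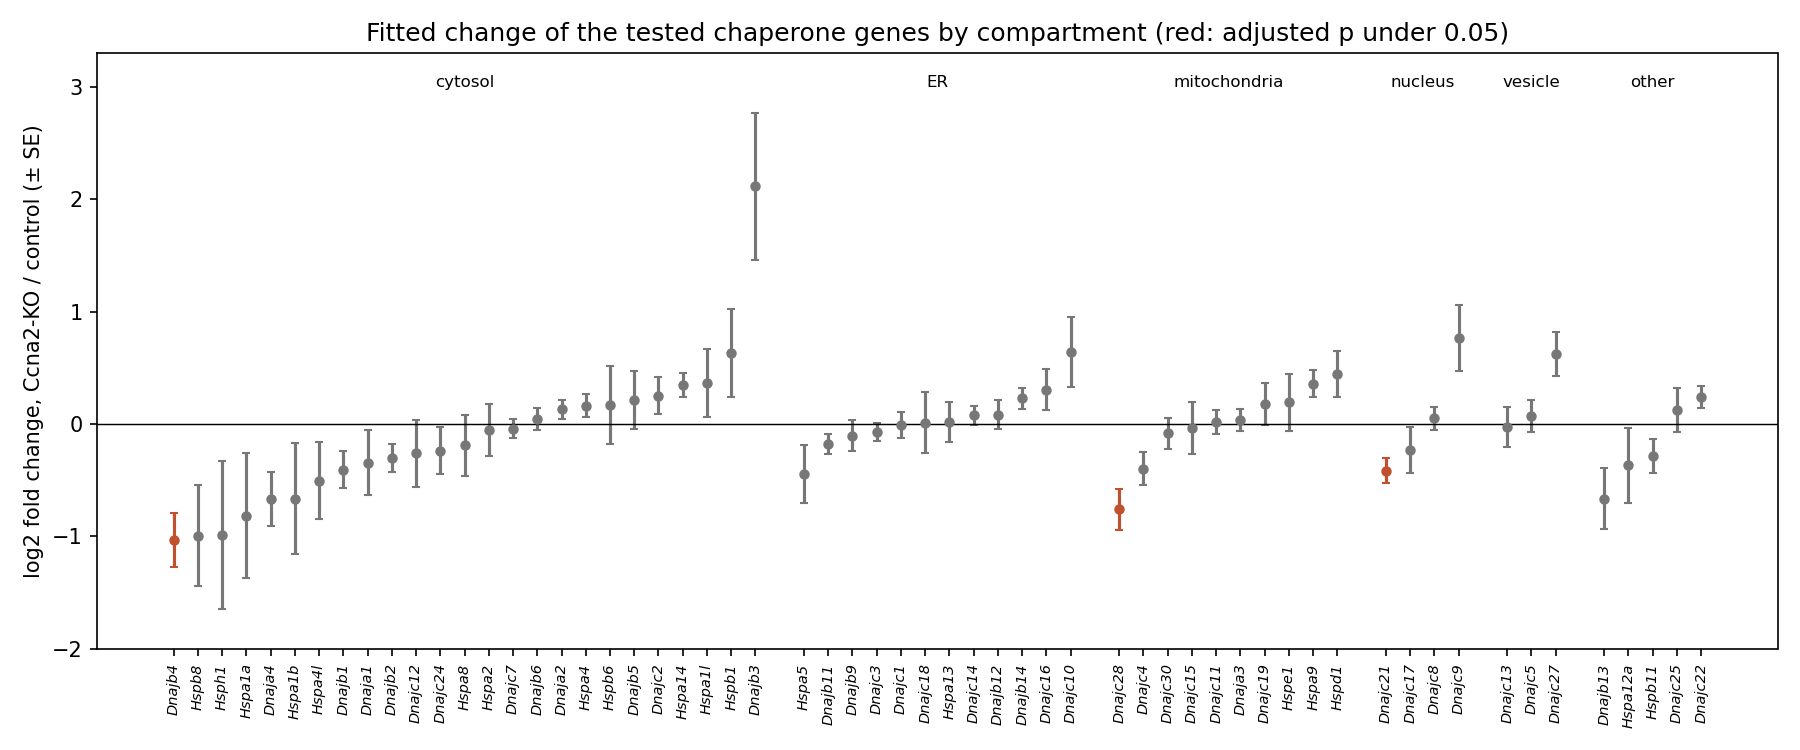
Fitted log2 fold change of Ccna2-KO over control for the 59 tested members, grouped by compartment. Points are edgeR estimates, bars are ± 1 SE and red marks an adjusted p under 0.05: the 3 red points, Dnajb4 (-1.03), Dnajc28 (-0.76) and Dnajc21 (-0.42), lie below 0.

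Dnajb4, a J protein that works with cytosolic HSP70, had the largest fall of the 3. It held 22.6, 37.8, 42.2 and 54.2 CPM in controls 1 to 4 and 18.5, 18.5, 16 and 23.8 CPM in KO-labelled libraries 1 to 4. Control 1 lay just below KO-labelled library 4, and every other control lay above every KO-labelled library. The means were 39.2 ± 13 and 19.2 ± 3.29 CPM (SD, n = 4 each), with a log2 fold change of -1.03 ± 0.24 (SE; edgeR adjusted p = 0.0243; set-adjusted -0.64, adjusted p = 0.0309). Dnajb4 also divided by library number set, with all low-set libraries above all high-set libraries. With genotype in the fit, the high set differed from the low set by -0.71 ± 0.17 (edgeR adjusted p = 0.0206). Transcript NM_025926.4 carried 96.7% of the Dnajb4 counts.

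The 250 bases before the start of that transcript are shown because they end in a heat shock element pair, inverted units of the sequence that Hsf1 binds. They lie within the annotated span of Dnajb4 on chromosome 3 and touch no annotated exon. All printed sequences are from RefSeq (GRCm38.p6) and are written 5′ to 3′. Unless stated otherwise, capitals mark the inverted repeats GAANNTTC and TTCNNGAA, each of which reads the same on both strands.
Dnajb4 (chr3:152193846-152194095, minus strand): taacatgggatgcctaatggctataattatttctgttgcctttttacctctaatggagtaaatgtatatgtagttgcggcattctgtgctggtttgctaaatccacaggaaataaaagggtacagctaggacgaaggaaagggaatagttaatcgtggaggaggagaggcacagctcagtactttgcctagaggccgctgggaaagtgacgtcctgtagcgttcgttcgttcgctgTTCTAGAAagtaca
The capitals end 6 bases before the start. A longer run of GAA, TTC and GAA units with the same spacing was not found in this window. The window before another Dnajb4 start holds no such pair. The windows before Dnajc21 and Dnajc28, the other called members, hold none either. A match of letters is a description, and binding was not measured.

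Dnajc21, a J protein needed to mature the large ribosomal subunit, also fell. Its controls held 36.6, 31.3, 29.1 and 35.1 CPM and the KO-labelled libraries 22.4, 27, 23.9 and 25.6 CPM. The groups did not overlap, and the log2 fold change was -0.42 ± 0.11 (adjusted p = 0.0391; set-adjusted -0.45, adjusted p = 0.0273). Dnajc28, a little-studied J protein counted here with the mitochondrial members, held 6.45, 6.66, 7.35 and 8.88 CPM in the controls and 5.16, 4.32, 3.5 and 4.35 CPM in the KO-labelled libraries. These groups did not overlap either, with a log2 fold change of -0.76 ± 0.18 (adjusted p = 0.025; set-adjusted -0.69, adjusted p = 0.038). Transcript NM_138664.2 carried 84.7% of the Dnajc28 counts, at 5.91 CPM in controls and 3.96 CPM in KO-labelled libraries.

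All 3 calls depended on single libraries. With 1 library left out at a time, Dnajb4 was called in 2 of 8 fits, those without control 1 or without KO-labelled library 4 (highest adjusted p 0.0794). Dnajc21 was called in 2 of 8, without control 1 or control 3 (highest 0.138). Dnajc28 was called in 3 of 8, without control 1, control 2 or KO-labelled library 1 (highest 0.0802). Each was lower in the KO-labelled group in all 8 fits.

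Among cytosolic HSP70 and HSP110 genes, Hspa1a, Hspa1b, Hspa8, Hsph1 and Hspa4l ranged over 2.67-fold or more in the controls, and Hspa4, Hspa14, Hspa2 and Hspa1l over 1.22-fold to 1.89-fold. Hspa8 (HSC70), the constitutive HSP70, held 1586, 1289, 2238 and 3444 CPM in controls 1 to 4 and 1743, 2058, 1847 and 1857 CPM in the KO-labelled libraries (-0.19 ± 0.27, adjusted p = 0.72). Hsph1, a stress-inducible HSP110, held 26.2, 35.6, 117 and 303 CPM in the controls and 51.5, 66.7, 50.9 and 73.5 CPM in the KO-labelled libraries. Controls 3 and 4 stood above all KO-labelled libraries and controls 1 and 2 below them. The log2 fold change of Hsph1 was -0.99 ± 0.66 (adjusted p = 0.386; set-adjusted 0.01 ± 1.02).

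Hspa1a and Hspa1b encode nearly the same inducible HSP70 and share reads. Hspa1a held 161, 57.6, 284 and 556 CPM in controls 1 to 4 and 144, 212, 99.6 and 147 CPM in the KO-labelled libraries (-0.82 ± 0.55, adjusted p = 0.399). Hspa1b held 227, 122, 418 and 825 CPM and 226, 328, 174 and 278 CPM (-0.66 ± 0.50, adjusted p = 0.447). Because reads of near copies cannot be placed with certainty, the sum is safer, at 388, 179.7, 702 and 1381 CPM in controls and 369.8, 539, 273 and 425 CPM in KO-labelled libraries. Control 4 was highest and control 2 lowest, and all KO-labelled sums lay between them.

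The sequences before both starts on chromosome 17 are shown because the genes took the same order across controls. As these genes share reads, their orders are not independent. Over 250 bases the sequences differ at 3 positions (98.8% identical), and each holds a heat shock element pair 96 bases before the start.
Hspa1a (chr17:34972157-34972406, minus strand): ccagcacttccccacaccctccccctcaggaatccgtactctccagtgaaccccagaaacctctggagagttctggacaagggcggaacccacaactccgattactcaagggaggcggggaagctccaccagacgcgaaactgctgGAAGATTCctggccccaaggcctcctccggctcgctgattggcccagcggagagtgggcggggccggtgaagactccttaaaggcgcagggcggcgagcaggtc
Hspa1b (chr17:34959239-34959488, minus strand): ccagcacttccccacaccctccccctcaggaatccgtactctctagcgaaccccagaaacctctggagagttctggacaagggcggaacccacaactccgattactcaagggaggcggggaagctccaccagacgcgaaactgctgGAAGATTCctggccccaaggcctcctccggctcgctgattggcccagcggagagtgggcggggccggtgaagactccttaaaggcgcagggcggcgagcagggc
Sites of Hsph1 and Dnaja1 are shown with the bases around them, as these genes also ranged widely. Annotated exons cover 218 of the 250 bases of the Dnaja1 window and 40 or 61 of those of the Hsph1 windows.
Hsph1 (chr5:149636351-149636380, minus strand): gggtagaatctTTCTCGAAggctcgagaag
Dnaja1 (chr4:40722333-40722362, plus strand): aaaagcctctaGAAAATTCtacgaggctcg
Such a pair was found in 14 of 57 members with a promoter entry (24.6%) and in 14.5% of all 27025 genes with an entry. Units of GAA, TTC and GAA, each 2 bases apart, or the same on the other strand, overlap 2 such pairs. They were found in 3 members, Dnajb6, Hspd1 and Hspe1 (5.26%), and in 0.514% of all genes.

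Hspa4l and the J proteins Dnaja1 and Dnajb1 repeated this order in part. Hspa4l, an HSP110, held 23.3, 32.7, 45.7 and 86.9 CPM in controls 1 to 4 and 29.7 to 38.4 CPM in KO-labelled libraries (-0.50 ± 0.35, adjusted p = 0.403). Dnaja1, the class A partner of cytosolic HSP70, held 161, 223, 312 and 473 CPM and 203 to 263 CPM (-0.35 ± 0.29, adjusted p = 0.503). For both, control 4 was the highest and control 1 the lowest of all 8 libraries. Dnajb1, the stress-inducible HSP40, held 166, 172, 198 and 244 CPM in the controls and 149, 165, 112 and 162 CPM in the KO-labelled libraries. Every control of Dnajb1 lay above every KO-labelled library, yet the log2 fold change of -0.41 ± 0.17 did not pass (adjusted p = 0.151).

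**Figure D2:**
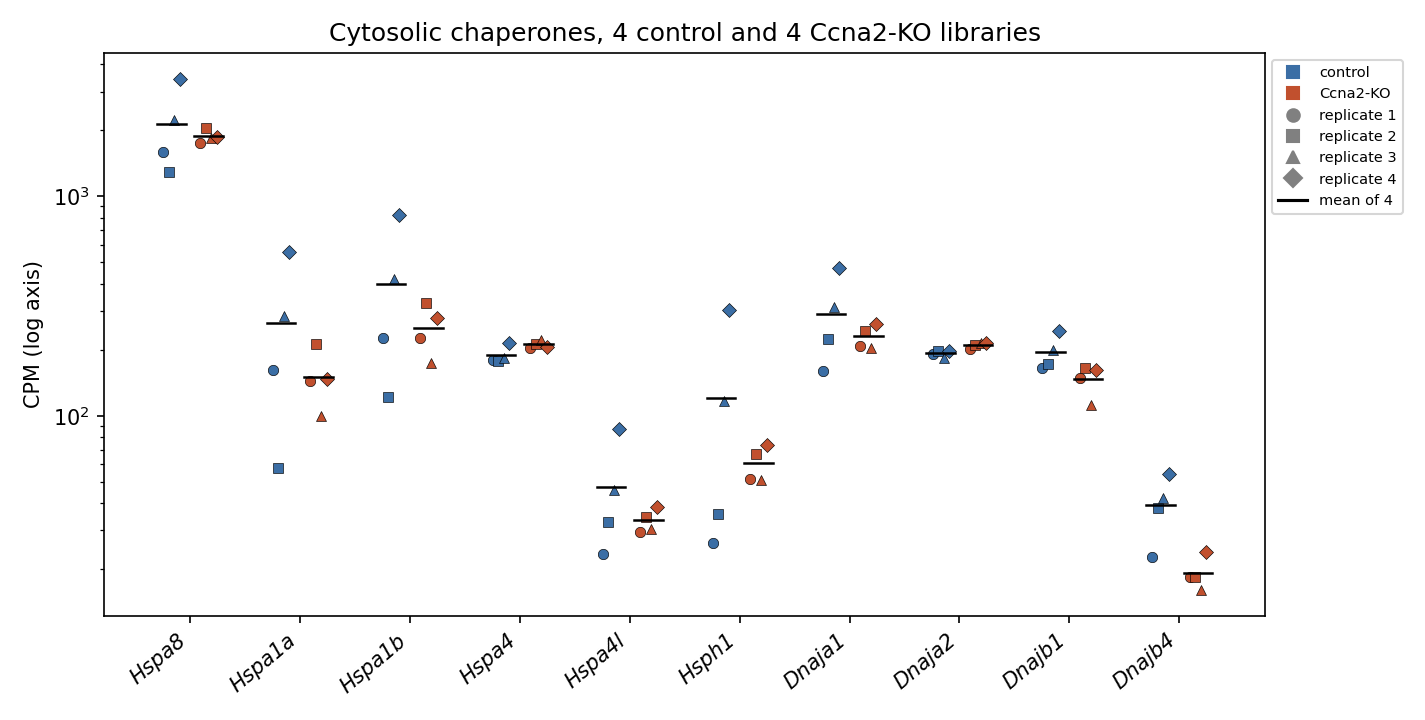
CPM of 10 cytosolic members in each library on a log axis, with blue for control, red for Ccna2-KO, marker shapes for replicates and a black line for the mean of 4. Control 4 is the highest library for Hspa8, Hspa1a, Hspa1b, Hspa4l, Hsph1, Dnaja1, Dnajb1 and Dnajb4, while Hspa4 (177 to 215 CPM in controls) and Dnaja2 (182 to 198 CPM) vary little.

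Hspa4, Dnaja2, Dnajc7 and Hspa14 ranged over 1.05-fold to 1.29-fold among the controls, while Hspa8 ranged over 2.67-fold. Hspa4, the third HSP110, lay at 177 to 215 CPM in controls and 204 to 223 CPM in KO-labelled libraries (0.16 ± 0.10, adjusted p = 0.349). Dnaja2, a close relative of Dnaja1, lay at 182 to 198 and 202 to 215 CPM (0.13 ± 0.09, adjusted p = 0.388), without overlap of the groups. Dnajc7, which binds both HSP70 and HSP90, lay at 138 to 145 and 131 to 140.4 CPM (-0.04 ± 0.08, adjusted p = 0.803). Hspa14, an HSP70 that acts at the ribosome, held 38.3, 33.9, 29.8 and 31.5 CPM in the controls and 41.4, 46.4, 43.5 and 38.5 CPM in the KO-labelled libraries. These did not overlap, and the log2 fold change of 0.35 ± 0.11 did not pass in edgeR (adjusted p = 0.0692). Its ribosomal partner Dnajc2 lay at 26.9 to 45.1 and 33.6 to 45.4 CPM (0.25 ± 0.17, adjusted p = 0.385).

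The other cytosolic J proteins did not pass in edgeR, while DESeq2 called Dnajb3 higher and Dnaja4 lower. Dnajb2, known from neurons, had a difference of -0.30 ± 0.12, adjusted p = 0.154, and Dnajb6, which holds back aggregation, one of 0.04 ± 0.10, adjusted p = 0.83. Dnaja4 had -0.67 ± 0.24, adjusted p = 0.108, but 44.1% of its exonic bases lie opposite exons of Wdr61, and without strand the reads of the 2 genes cannot be told apart. Dnajb3 was near the floor, with 0, 0.239, 0.4 and 0.576 CPM in controls and 1.89, 1.32, 1.62 and 0.588 CPM in KO-labelled libraries (2.12 ± 0.65, adjusted p = 0.0663). Dnajb5 (0.21 ± 0.26), Dnajc12 (-0.26 ± 0.30) and Dnajc24 (-0.24 ± 0.21), none above 7.32 CPM, did not pass.

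Small heat shock proteins, which hold unfolded protein without using ATP, were scarce. Hspb1 lay at 0.359 to 1.25 CPM in controls and 0.749 to 1.35 CPM in KO-labelled libraries (0.63 ± 0.39, adjusted p = 0.349). Hspb8, a partner of Bag3 in selective autophagy, held 0.314, 1.2, 1.32 and 0.909 and 0.64, 0.51, 0.468 and 0.235 CPM (-1.0 ± 0.45, adjusted p = 0.196). Hspb6 lay at 1.51 to 3.66 and 1.45 to 2.93 CPM. All 8 genes of this naming group summed to 11.3 to 18.7 CPM in a library, of which Hspb11, a protein of ciliary transport, gave 8.08 to 13 CPM.

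The range among replicates, the highest CPM of a group divided by the lowest, had a higher median in the cytosol than in the ER or mitochondria. The median over 24 cytosolic members was 2.01-fold in controls and 1.38-fold in KO-labelled libraries. The same medians were 1.49 and 1.21 for ER members, 1.45 and 1.29 for mitochondrial members, and 1.63 and 1.36 for all genes. Of the 24 cytosolic members, Dnaja4, Dnajb5, Dnajc12, Dnajc24, Hspa1l, Hspa2, Hspb1, Hspb6 and Hspb8 had control means under 8.7 CPM. Among ER members only Dnajc18 (4.04 CPM) did, and among mitochondrial members only Dnajc28 (7.33 CPM). Low counts can widen such ranges, and their part in these medians was not tested. The widest ranges in controls were 11.6-fold for Hsph1, 9.65-fold for Hspa1a, 6.76-fold for Hspa1b, 4.22-fold for Hspb8, 3.72-fold for Hspa4l and 3.49-fold for Hspb1. Hspb8 and Hspb1 rested on as few as 9 counts in a control. In controls 6 of 58 members ranged over more than 3-fold (10.3%), all of them cytosolic, while 13% of all genes did. In KO-labelled libraries 0 of 58 members ranged over more than 3-fold, while 5.2% of all genes did. Control 4 was the highest of 8 libraries in 11 of 24 cytosolic members (45.8%) and in 11.2% of all genes.

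The 13 members with a heat shock element pair had a median control range of 2.39-fold, and the 35 with a promoter entry and no pair 1.51-fold. The 13 are not independent, as Hspa1a and Hspa1b share reads and Hspd1 and Hspe1 share a site. Both groups hold scarce members, such as Hspb1 with a pair and Hspb8 without. Over all genes the medians were 1.64 with a pair (1464 genes) and 1.59 without (10105 genes). Hspa4l and Hspb8 ranged widely without a pair. Dnajb6 ranged over 1.25-fold with the longer element, shown here for that contrast. All 250 bases of its windows lie in annotated exons, as do those of the windows with the Hspd1 and Hspe1 site.
Dnajb6 (chr5:29735844-29735873, plus strand): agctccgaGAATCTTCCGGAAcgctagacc

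**Figure D3:**
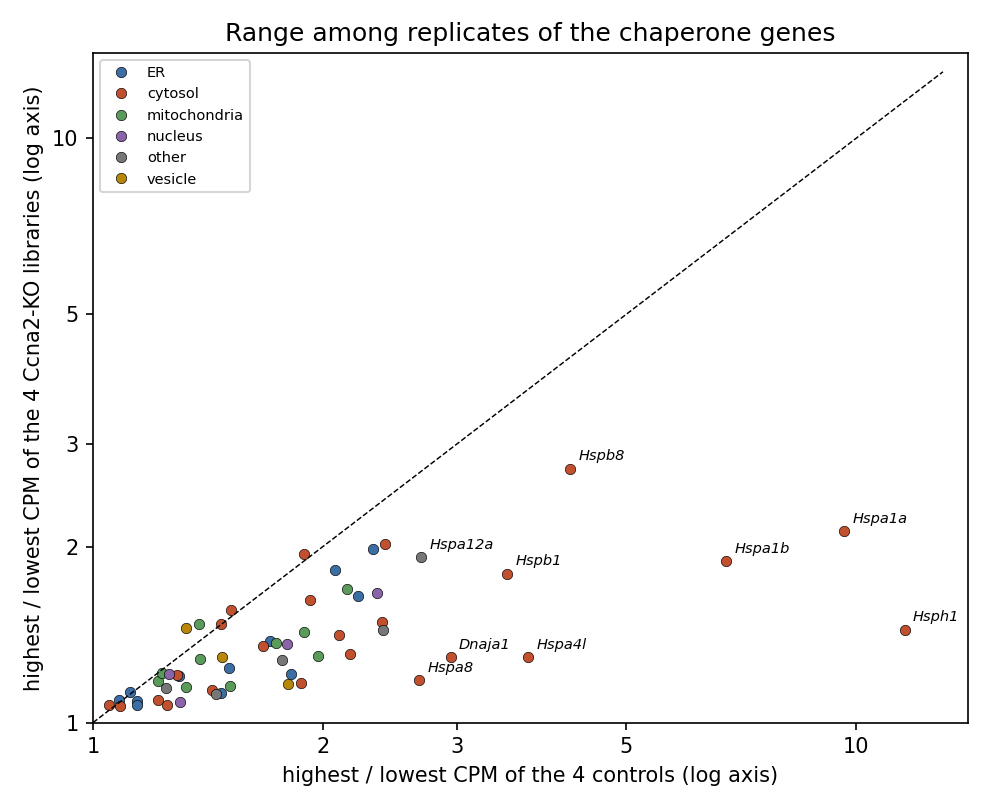
Highest over lowest CPM among the 4 controls (x) and among the 4 Ccna2-KO libraries (y), both on log axes, with 1 point per member coloured by compartment and a dashed line of equal ranges. Of 58 members, 50 lie below the line, and Hsph1 (11.6-fold in controls, 1.44-fold in Ccna2-KO), Hspa1a and Hspa1b lie farthest right.

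Wider ranges in controls were common, in 86.2% of these members and 73.8% of all genes. Several lists of markers of handling and of other cells separated the groups. Of 11 immediate early genes, which respond to cell isolation, 6 fell and 0 rose, with a summed level of 15408 to 21868 CPM in controls and 9500.5 to 15091 CPM in KO-labelled libraries. Of 11 tested leukocyte genes, 9 fell and 0 rose, and the sum over 12 was 118 to 1006 CPM in controls, highest in control 2 and lowest in control 4, and 16.1 to 33.4 CPM in KO-labelled libraries. Of 5 tested fibroblast and smooth muscle genes 1 rose, with sums over 10 genes of 7 to 14 and 10.5 to 31.1 CPM. Of 5 endothelial genes only Pecam1 was tested and it fell (-0.94 ± 0.24, adjusted p = 0.0315), with sums over the 5 of 2.12 to 3.51 CPM in controls and 1.33 to 1.72 CPM in KO-labelled libraries, without overlap, and Emcn was at 0 in every control. Of 9 enteroendocrine genes 4 fell and 0 rose, with sums of 175 to 302 and 52.3 to 71.7 CPM, also without overlap. Of 8 goblet and secretory genes 0 passed in edgeR or DESeq2, with 0 at an unadjusted p under 0.05, and control 1 stood apart with a sum of 18136 CPM, beside 8259 to 12956 CPM in controls 2 to 4 and 8466 to 13674 CPM in KO-labelled libraries. Their part in the chaperone values was not tested. In bulk RNA, fewer cells of a type and less RNA per cell cannot be told apart.

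Among ER members, Hspa5 (BiP), the HSP70 of that compartment, divided by library number set. It held 1014, 2107, 1789 and 1956 CPM in controls 1 to 4 and 1149, 976, 1139 and 1778 CPM in KO-labelled libraries 1 to 4. The 4 low-set libraries lay above the 4 high-set libraries, while the labelled groups overlapped. The difference between groups was -0.45 ± 0.26, adjusted p = 0.31 (set-adjusted -0.02, adjusted p = 0.946). With genotype in the fit, the high set differed from the low set by -0.83 ± 0.12, adjusted p = 0.00611.

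An ER stress response element was searched as CCAAT and CCACG with 9 bases between, on either strand. It was found in 2 of 57 members, Hspa5 and Dnajc3 (3.51%), and in 0.13% of all genes with an entry. The Hspa5 site on chromosome 2, with the element in capitals, is shown because Hspa5 divided by set.
Hspa5 (chr2:34772020-34772049, plus strand): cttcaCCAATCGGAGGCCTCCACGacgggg
Dnajc3 (p58IPK), a J protein of the ER lumen, did not divide this way, with 94.7, 88.8, 92.7 and 95.9 CPM in controls and 86.3, 88.7, 93.2 and 85.4 CPM in KO-labelled libraries (-0.07 ± 0.08, adjusted p = 0.629).

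Dnajc10 (ERdj5), which reduces disulfide bonds of proteins marked for degradation, took the opposite order. Its controls held 158, 67.7, 72.5 and 71.1 CPM and the KO-labelled libraries 148, 176, 162 and 89 CPM. All high-set libraries lay above all low-set libraries. The difference between sets was 1.01 ± 0.10, adjusted p = 0.00477, and that between groups 0.64 ± 0.31, adjusted p = 0.226 (set-adjusted 0.19, adjusted p = 0.222). Hspa13, an HSP70-like protein of the ER, held 21.3, 38.7, 37.5 and 35.6 CPM in controls and 34.3, 31.6, 31.3 and 37.8 CPM in KO-labelled libraries, with a set difference of -0.51 ± 0.14, adjusted p = 0.0267.

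**Figure D4:**
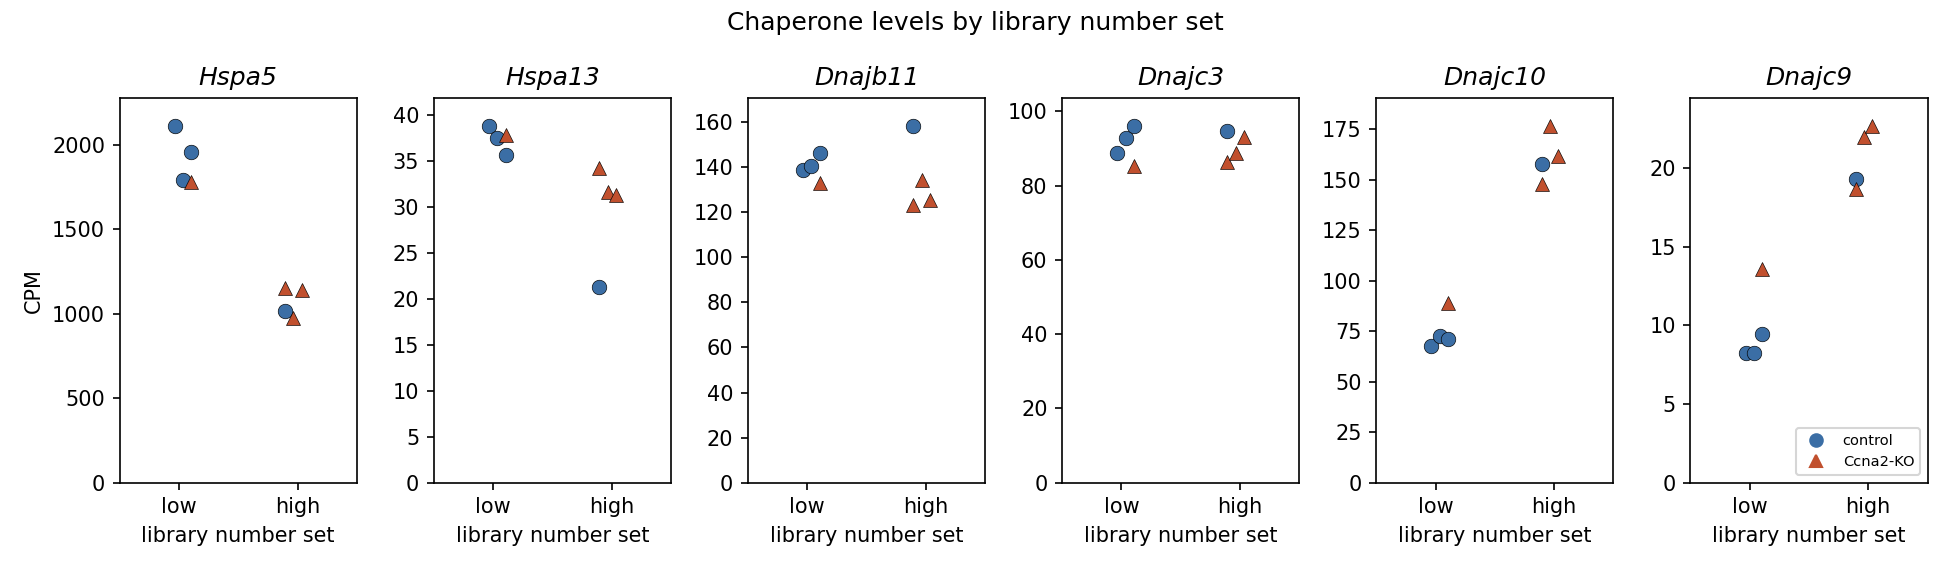
CPM of 5 ER members and the nuclear Dnajc9 in each library by library number set (low: controls 2, 3 and 4 and Ccna2-KO 4; high: control 1 and Ccna2-KO 1, 2 and 3), with circles for controls, triangles for Ccna2-KO and axes from 0. Hspa5 is higher in the low set (1778 to 2107 against 976 to 1149 CPM), Dnajc10 and Dnajc9 in the high set, and Dnajc3 varies little.

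The remaining ER members did not pass the test between groups. Dnajb11 (ERdj3), a secreted partner of BiP, held 158, 139, 140.5 and 146 CPM in controls and 123, 134, 125 and 133 CPM in KO-labelled libraries, without overlap (-0.18 ± 0.09, adjusted p = 0.245). Dnajb9 (ERdj4), which restrains the stress sensor Ern1, lay at 89.2 to 134 and 93 to 115 CPM (-0.10 ± 0.14, adjusted p = 0.688). Dnajb14, of the ER membrane, lay at 20.3 to 22.7 and 24.3 to 27.4 CPM and passed with the set term (0.23 ± 0.09, adjusted p = 0.151; set-adjusted 0.30, adjusted p = 0.0466). Dnajc1 (-0.01 ± 0.11), Dnajb12 (0.08 ± 0.13), Dnajc14 (0.08 ± 0.08), Dnajc16 (0.30 ± 0.18) and Dnajc18 (0.01 ± 0.27) did not pass.

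The mitochondrial folding genes Hspa9, Hspd1 and Hspe1 did not pass in edgeR, and DESeq2 called Hspa9 higher. Hspa9 (mortalin), which draws proteins into the matrix and folds them, held 349, 292, 284 and 341 CPM in controls and 381, 443, 436 and 364 CPM in KO-labelled libraries. The groups did not overlap (317 ± 33.3 and 406 ± 39.5 CPM), with a difference of 0.36 ± 0.12, adjusted p = 0.085 (set-adjusted 0.26, adjusted p = 0.125). Hspd1 (HSP60), the chaperonin barrel, held 321, 203, 237 and 383 and 370.2, 449, 423 and 314 CPM (0.44 ± 0.21, adjusted p = 0.21; set-adjusted 0.28, adjusted p = 0.389). Hspe1 (HSP10), its lid, held 102, 47.4, 49.9 and 75.7 and 77.8, 98.3, 80.6 and 58 CPM (0.19 ± 0.26, adjusted p = 0.692), and its difference turned negative with the set term (set-adjusted -0.13, adjusted p = 0.654). Controls 2 and 3 were the lowest of the 8 libraries for both chaperonin genes.

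Hspd1 and Hspe1 lie head to head on chromosome 1, and the window upstream of each holds the same run of overlapping heat shock element pairs, shown in the direction of Hspe1.
Hspe1 and Hspd1 (chr1:55088053-55088082, plus strand): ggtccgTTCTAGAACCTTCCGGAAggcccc
Hspe1 was higher in all high-set libraries than in any low-set library (0.69 ± 0.18, adjusted p = 0.024). For Hspd1 the sets overlapped (0.31 ± 0.21, adjusted p = 0.303).

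Mitochondrial J proteins mostly differed little between the groups. Dnajc19, of the import motor, had a difference of 0.18 ± 0.19, adjusted p = 0.614, and its relative Dnajc15 one of -0.04 ± 0.23, adjusted p = 0.941. For both, all high-set libraries lay above all low-set libraries. The set differences were 0.47 ± 0.14, adjusted p = 0.0371, for Dnajc19 and 0.58 ± 0.16, adjusted p = 0.0314, for Dnajc15. Dnaja3 (Tid1), the matrix partner of Hspa9, lay at 65.1 to 79.2 and 67.2 to 79.3 CPM (0.04 ± 0.10). Dnajc11 (0.02 ± 0.11) and Dnajc30 (-0.08 ± 0.14) did not pass. Dnajc4 held 29.3, 21.7, 19.4 and 20.7 CPM in controls and 18.3, 17.5, 17.5 and 15.9 CPM in KO-labelled libraries. Its groups did not overlap, and it passed with the set term (-0.40 ± 0.14, adjusted p = 0.109; set-adjusted -0.55, adjusted p = 0.00895).

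**Figure D5:**
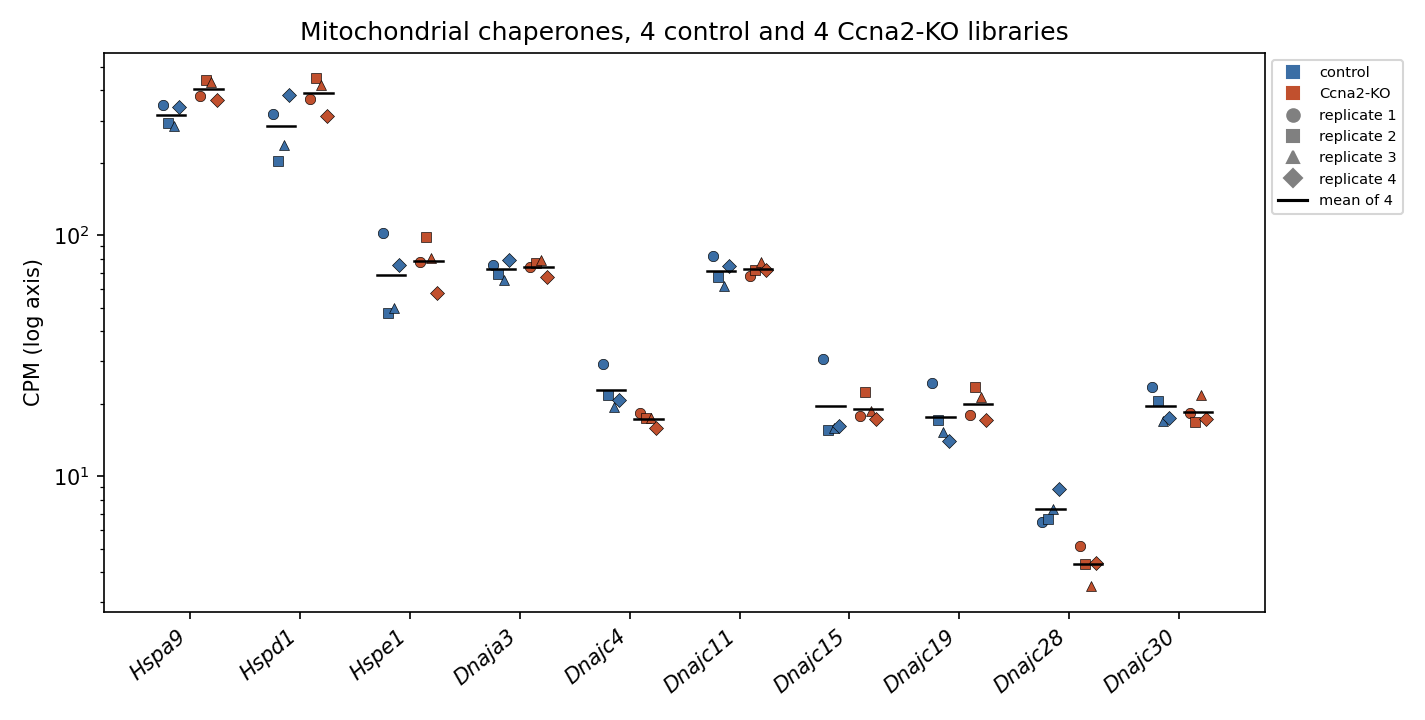
CPM of the 10 mitochondrial members in each library on a log axis, with blue for control, red for Ccna2-KO, marker shapes for replicates and a black line for the mean of 4. The groups do not overlap for Hspa9 (284 to 349 and 364 to 443 CPM), Dnajc4 and Dnajc28, and of these Dnajc28 passed the test.

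Nuclear, vesicle and other members came next. Dnajc9, a histone chaperone, held 19.3, 8.22, 8.27 and 9.45 CPM in controls and 18.7, 22, 22.7 and 13.6 CPM in KO-labelled libraries (0.77 ± 0.30, adjusted p = 0.132). The high set lay above the low set (0.90 ± 0.14, adjusted p = 0.00707). Beside it, 8 cycling genes summed to 520.1, 274, 244 and 262 CPM in controls and 722, 903, 922 and 621 CPM in KO-labelled libraries. Of these 8 genes, 3 rose and 0 fell in edgeR (37.5%), while 12.1% of all genes passed, and DESeq2 called 5 higher and 0 lower. Their part in the Dnajc9 values was not tested. Dnajc8 (0.05 ± 0.10) and Dnajc17 (-0.23 ± 0.20), both of the spliceosome, did not pass. Dnajc5, the cysteine string protein of secretory vesicles, lay at 122 to 180.4 and 146 to 189.9 CPM (0.07 ± 0.14, adjusted p = 0.807), and Dnajc13, of endosomes, had -0.03 ± 0.18. Dnajc27, a small GTPase with a J domain, lay at 1.88 to 2.49 and 2.75 to 3.99 CPM without overlap (0.62 ± 0.20, adjusted p = 0.0716). Dnajc22 lay at 42.3 to 52.7 and 53.1 to 60.8 CPM, also without overlap (0.24 ± 0.10, adjusted p = 0.161). Dnajb13, known from sperm flagella, had -0.67 ± 0.27, adjusted p = 0.151. Of its exonic bases, 11.2% lie opposite exons of Ucp2, and without strand the reads there cannot be told apart. Transcript XM_006508185.3 carried 88.2% of the Dnajb13 counts. The same limit on strand holds for 26.2% of the exonic bases of Dnajc30 (opposite Bud23), 19% of Hspa1a (Gm20481) and 17% of Dnajc14 (Ormdl2).

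With genotype in the fit, 15 of 59 members differed between the number sets (25.4%), 9 higher and 6 lower in the high set, while 22.3% of all genes did (12.9% higher, 9.43% lower). Each set holds 1 library of the smaller group, control 1 or KO-labelled library 4, so a set effect cannot be told apart from effects of those libraries. Without control 1, 7 members were higher and 7 lower (23.7%), while 28.5% of all genes passed (15.1% higher, 13.4% lower), and the controls left all belong to the low set. The higher ones were Dnajb3, Hspb1, Dnajc9 (1.15 ± 0.18), Dnajc10 (1.03 ± 0.21), Hspa14 (0.42 ± 0.09), Dnajc2 and Hspa9 (0.41 ± 0.11). The lower ones were Dnajb4 (-1.22 ± 0.16), Hspb8, Dnajb13, Dnajc28, Hspa5 (-0.63 ± 0.19), Dnajb1 and Dnajc21.

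Levels can be compared between genes once divided by transcript length, here for members with a length for at least 90% of their counts. In controls Hspa8 led with 893 ± 399 CPM per kb (SD, n = 4), followed by Hspa5 with 656 ± 186, within their spread. Next came Hspa1b (142 ± 110.4), Hspd1 (113 ± 33.5), Hspa9 (104 ± 10.9), Hspa1a (89.1 ± 72.4), Hspe1 (88.8 ± 33.1) and Dnaja1 (85.2 ± 39.7), neighbours that did not differ beyond their spread. In KO-labelled libraries the order was Hspa8 (783 ± 55.1), Hspa5 (482 ± 135), Hspd1 (154 ± 23.8) and Hspa9 (133 ± 12.9).

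Partner genes outside the family were called at 0% to 11.8% per list in edgeR, and 12.1% of all genes were. Hsf1 held 27.8, 27.6, 28.4 and 35.7 CPM in controls and 21.7, 25.9, 24.9 and 25.6 CPM in KO-labelled libraries, without overlap (-0.28 ± 0.12, adjusted p = 0.161). Of 17 genes of HSP90 and its co-chaperones, 1 rose and 0 fell (median -0.03). It was Sugt1, an HSP90 adaptor, at 58.9 to 68 and 75.2 to 89.1 CPM (0.38 ± 0.09, adjusted p = 0.0266). The inducible Hsp90aa1 held 269.9, 151, 242 and 469 CPM in controls and 309, 424, 329 and 299 CPM in KO-labelled libraries (0.27 ± 0.30, adjusted p = 0.63). Hsp90ab1 (-0.03 ± 0.25), the ER member Hsp90b1 (0.02 ± 0.11) and the mitochondrial Trap1 (0.14 ± 0.13) did not pass.

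Of 17 tested heat shock factors and HSP70 regulators, 2 rose and 0 fell (median -0.03). Bag2, which restrains the ubiquitin ligase Stub1 on HSP70, held 2.93, 1.24, 1.88 and 2.48 CPM in controls and 3.91, 5.34, 5.59 and 3.8 CPM in KO-labelled libraries (1.13 ± 0.28, adjusted p = 0.0317). Hspbap1, a binding partner of Hspb1, lay at 8.12 to 8.94 and 12.4 to 14 CPM (0.61 ± 0.11, adjusted p = 0.00947). Of 14 genes of the cytosolic chaperonin and prefoldin, which fold actin and tubulin, 0 passed in edgeR or DESeq2, and 1 had an unadjusted p under 0.05 (median 0.09).

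Of 27 tested genes of ER folding and the unfolded protein response, 1 rose and 2 fell (median 0.05). Xbp1, a transcription factor of that response, lay at 202 to 252 and 157 to 172 CPM (-0.46 ± 0.10, adjusted p = 0.0195). Herpud1, of ER-associated degradation, lay at 218 to 267 and 129 to 211 CPM (-0.69 ± 0.17, adjusted p = 0.0299). Trib3, a stress-induced pseudokinase, lay at 0.307 to 0.418 and 0.941 to 1.18 CPM (1.65 ± 0.23, adjusted p = 0.00277). Of 16 mitochondrial proteostasis genes 1 rose and 0 fell (median 0.11), namely Clpb, a disaggregase, at 28.7 to 36.3 and 39 to 48.2 CPM (0.45 ± 0.11, adjusted p = 0.0258).

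The 10 members that did not pass the filter were near the floor of detection. Dnajb8, Dnajc5g and Hspb3 had 0 counts in all 8 libraries. Summed over controls and over KO-labelled libraries, Hspb2 had 2 and 0 counts, Dnajc5b 1 and 7, Hspa12b 9 and 5, and Hspb9 19 and 27. Dnajb7 had 23 and 6, the auxilin gene Dnajc6 31 and 19, and Hspb7 34 and 7. Hspb7, a small heat shock protein of heart and muscle, passed in the fit without a filter (-2.20, adjusted p = 0.035). Of the tested members not yet described, Hspa1l, which overlaps an antisense gene over 71.9% of its exonic bases, had 0.36 ± 0.30, Hspa2, an HSP70 known from testis, -0.06 ± 0.23, the distant HSP70 relative Hspa12a -0.37 ± 0.33 and Dnajc25 0.13 ± 0.20, and 0 of these passed or had an unadjusted p under 0.05.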

How the data were processed

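The deposited table holds estimated counts for each RefSeq transcript of 8 libraries, made by the authors with kallisto against GRCm38 (mm10), per the submitters' processing notes. The version is, like strandedness, not given in the sources used here. Reads that fit several transcripts are divided between them, which makes near copies uncertain.

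Counts of 107193 transcripts were summed by symbol, then rounded. The 687 transcripts lacking a symbol (3.19% to 5.51% of counts) were dropped. Genotype was tested with the quasi-likelihood F test of edgeR 4.0.16 under R 4.3.3, using filterByExpr, TMM, robust fits and Benjamini-Hochberg adjustment across 15893 genes at 0.05. CPM uses TMM-scaled totals, and differences are log2 fold changes ± SE. Simulated data, with 15657 genes run, held 100 genes changed by 1 and 100 changed by 2 on the log2 scale. The fit recovered 50% of the first and 92% of the second, and 7.19% of its calls were false. A gene that did not pass may therefore still differ. The simulation changed fewer genes than were called here and held no library number set, so its rates may not carry over.

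Compartments were assigned from general knowledge. Members, lists and alternatives were chosen with earlier results of these data known. The genes named are called members, a set list of members and partners, and up to 4 genes of smallest adjusted p per partner list. Dnajb3, Dnajb12, Dnajb13, Dnajb14, Dnajc4, Dnajc8, Dnajc11, Dnajc13, Dnajc14, Dnajc16, Dnajc17, Dnajc18, Dnajc24, Dnajc25, Dnajc27, Dnajc30, Hspa1l, Hspb6 and Hspb11 were added after their values were seen. Alternatives were RLE and upper quartile scaling, other filters, DESeq2 1.42.0, limma 3.58.1 voom, a replicate block, the set term and leaving out libraries. Motifs were searched in 250 bases before RefSeq starts, and 12 members had no entry. Lengths and overlaps came from GENCODE M21.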

Additional observations from a re-analysis of the deposited data

Results flagged for a closer look

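Among 118 groups of 4 values, 2 for each of the 59 tested members, 8 had a highest or lowest library far from the other 3, and 6 of these were in control 1. Chance gives about 1 in 20 such groups. In control 1 the values of Dnajc10 (158 CPM, nearest other 72.5 CPM), Dnajc15 (30.8 CPM, nearest other 16.1 CPM) and Dnajc9 (19.3 CPM, nearest other 9.45 CPM) lay far above those of the other controls. In the same library Dnajc13 (75.7 CPM, nearest other 131 CPM), Dnajb6 (86.4 CPM, nearest other 106 CPM) and Hspa13 (21.3 CPM, nearest other 35.6 CPM) lay far below them. In KO-labelled libraries, Dnajc16 was low in replicate 2 (26.4 CPM, nearest other 35.5 CPM) and Dnajc18 in replicate 4 (2.78 CPM, nearest other 4.38 CPM).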

How the results depend on the processing

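RLE and upper quartile scaling, a filter of 1 CPM and limma voom each called Dnajb4, Dnajc21 and Dnajc28 and no other member. Without a filter Dnajb4, Dnajc28 and Hspb7 were called, while Dnajc21 was not (adjusted p = 0.0709). DESeq2 called 4 members higher, where edgeR called 0, and 1431 genes lower, where edgeR called 907. With the set term, 1 member was higher, 1415 genes were lower, and the medians moved from 0.016 to 0.065 for ER, from -0.19 to -0.038 for cytosolic and from 0.028 to -0.087 for mitochondrial members, the last with a change of sign. With single libraries left out, 0 to 7 members were higher and 0 to 7 lower, both highest without control 1, and 572 to 2457 genes were higher and 400 to 2170 lower. Over these fits the medians ranged from 0.0088 to 0.051 for ER, -0.29 to -0.014 for cytosolic and -0.029 to 0.18 for mitochondrial members.

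With the replicate number as a block, 619 genes were higher and 368 lower, and 1 member was called, Dnajb4 (-0.98, adjusted p = 0.035). Dnajc21 (adjusted p = 0.133) and Dnajc28 (adjusted p = 0.095) did not pass. The labels do not say whether libraries with the same replicate number belong together. The deviations from the group means correlated by -0.07, -0.35, -0.26 and 0.15 for numbers 1 to 4. Of 8 libraries, 1 correlated best with its own number. Control 1 and KO-labelled library 4 each stand alone by set in their group, which shapes these deviations, so the correlations cannot settle pairing. The causes of these moves were not tested. Depth limits the members at or below about 1 CPM, such as Dnajb3, Hspb1 and Hspb8.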
